A study of Sus scrofa with 20 samples.

Results

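The extracellular matrix genes and matrix proteases were followed in the testis and liver of boars with low or high androstenone. Members were taken by gene symbol: collagen chains (COL), laminin chains (LAM), integrin chains (ITG), matrix metalloproteinases (MMP), the tissue inhibitors of metalloproteinases (TIMP) and the ADAMTS proteases, together with FN1, DCN, LUM, BGN, SPARC and TNC. They made up 48 reference IDs for 47 genes of 21755 reference IDs in the counts, of which 6692 had a symbol, since COL11A2 had 2 IDs. No ID carried the symbol LUM or that of a chain of the collagens I, III, IV or VI, so the main fibrillar and basement membrane collagens were not analysed here. RNA was sequenced from 5 boars with low and 5 boars with high androstenone, with 1 library per tissue and boar, which gave 20 samples in 4 groups of 5. All the animals were uncastrated males slaughtered at 116 days of age on average, sired by Duroc boars from sows that combined Leicoma, German Landrace and Large White, so the groups shared breed cross and sex. Androstenone is a steroid that Leydig cells of the testis make and that the liver breaks down, and its storage in fat gives boar meat its taint.

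The extracellular matrix is the network of collagens, laminins, glycoproteins and proteoglycans around cells, and integrins are the paired membrane receptors by which cells hold on to it. MMPs and ADAMTS enzymes are zinc proteases that cut matrix proteins, and TIMPs are small secreted proteins that block them. In the testis a laminin-rich matrix surrounds the seminiferous tubules, where peritubular cells and Sertoli cells lay it down. Hepatocytes release plasma fibronectin into the blood, while the liver itself holds little matrix along its sinusoids.

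Reads were counted per reference ID, and levels are given as counts per 1000000 counted reads (CPM), scaled between samples by the TMM method of edgeR. The testes held 6161397 to 15975386 counts and the livers 5796973 to 26783002 (n = 10 samples each). Taken as the lowest value separable from 0, 3 counts were worth 0.188 to 0.487 CPM in a testis and 0.112 to 0.518 CPM in a liver before scaling, which covers counting error only. The tissue labels were checked against markers: 5 germ cell markers summed to between 1418 and 4426 CPM in the testes and to between 5.15 and 31.0 CPM in the livers, and 6 hepatocyte markers to between 107067 and 308606 CPM in the livers and at most 122 CPM in the testes. Each library came from a piece of whole tissue, so fewer cells of a type and less RNA per cell cannot be told apart.

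The members took between 0.0996% and 0.155% of the counts in the testes and between 0.114% and 0.191% in the livers. A mean of at least 1 CPM was reached by 25 of the 48 IDs in testis and by 24 in liver, and of at least 100 CPM by 3 in testis (DCN, LAMB1, TIMP2) and by 4 in liver (FN1, ITGB1, DCN, BGN). Under 10 counts over the 10 samples of a tissue were found for 9 IDs in testis and 12 in liver. The 9 of testis were COL10A1, both IDs of COL11A2, MMP1, MMP3, MMP8, MMP12, MMP17 and MMP20, which had at most 5 counts over all testes and at most 5 over all livers. These entered no test, which left 39 of the 48 IDs in the testis and tissue comparisons and 36 in liver. Low-count members such as MMP9, with a highest level of 0.580 CPM in any sample, are given as levels near the floor.

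Most of the reads on the members came from different genes in each tissue. In testis, decorin (DCN, NM_213920.1) took 31.8% of the members' counts, TIMP2 16.7%, LAMB1 12.9% and SPARC 10.4%. In liver, fibronectin (FN1, XM_003133642.1) alone took 52.4%, with ITGB1 at 11.7%, DCN at 8.88% and BGN at 7.42%. These are shares of reads and depend on transcript length, so they do not rank the genes by number of transcripts.

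The testis and the liver were compared over all 20 samples, between the mean of both testis groups and the mean of both liver groups. Most integrin chains, fibronectin, biglycan, MMP14 and ADAMTS1 were higher in liver, while TIMP2, MMP13, COL11A1, COL9A1, ADAMTS8, LAMB1, SPARC and ITGB8 were higher in testis. Of the 39 members tested, 22 passed (adjusted p under 0.05 in edgeR's quasi-likelihood test and a fold of at least 1.5), against 75.7% of all 19065 IDs tested. Of these, 8 were higher in testis (43.5% of all IDs) and 14 in liver (32.2%). Without the fold and the adjustment, a p under 0.05 was found for 9 members higher in testis and 14 higher in liver (45.6% and 34.6% of all IDs, 80.2% together). The median log2 difference, testis minus liver, was -0.14 over the members and 0.31 over all IDs tested, and the members' median was the same with MMP13, which had no liver count, set at its lower bound. The 10 testes and the 10 livers did not overlap for 11 members, against 42.8% of all IDs (5 members higher in testis against 27.5%, and 6 higher in liver against 15.3%). Scaling by total counts alone moved the median of all IDs up by 0.97 on the log2 scale, with 19 members then higher in testis and 9 in liver, beside 59.5% and 18.8% of all IDs. Of the 39 members, 9 changed sign under this scaling, so log2 differences smaller than about this size depend on the scaling.

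**Figure D1:**
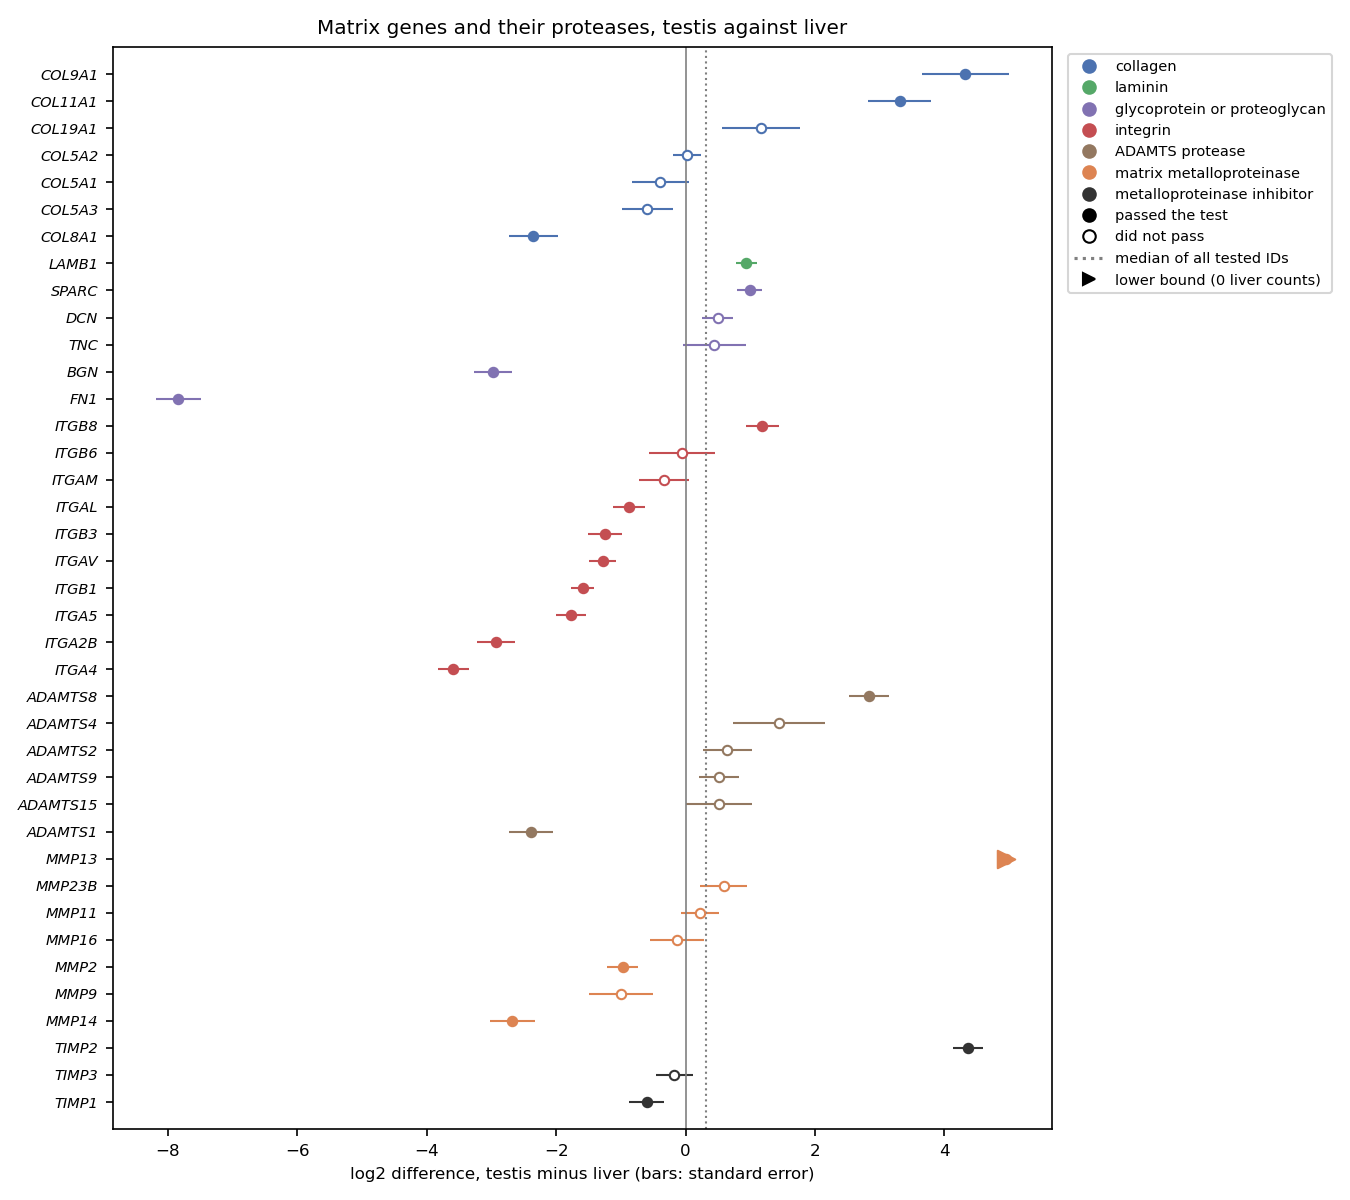
Log2 difference between testis and liver (x axis, testis minus liver) of the 39 members tested, grouped by role. Points are edgeR estimates with standard errors, filled where the member passed the test, the triangle is the lower bound for MMP13, and the dotted line is the median of all IDs tested (0.31). Integrins lie mostly to the left (higher in liver), FN1 lies farthest left at -7.84, and TIMP2, COL9A1 and COL11A1 lie to the right.

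Fibronectin, which links integrins to collagen and circulates in plasma, had the largest difference of the members. Its level ran from 1.65 to 10.7 CPM (median 4.25) in the 10 testes and from 702 to 1578 CPM (median 1108) in the 10 livers. No testis came near any liver. Its log2 difference was -7.84 ± 0.35 (SE), a fold of 229 (adjusted p = 2.24e-16). Biglycan (BGN, XM_003135475.1), a small proteoglycan that binds collagen, ran from 11.1 to 33.6 CPM in testis (median 21.6) and from 50.0 to 301 CPM in liver (median 155). The tissues did not overlap, although the livers differed among themselves by more than the testes did, and the log2 difference was -2.98 ± 0.29 (adjusted p = 1.15e-09).

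The other matrix glycoproteins and proteoglycans differed less between the tissues. Decorin, the close relative of biglycan, lay between 140.1 and 405 CPM in testis (median 291) and between 119 and 403 CPM in liver (median 163). The groups overlapped, and the log2 difference of 0.50 ± 0.24 did not pass (adjusted p = 0.0616), whereas without liver high replicate 4, the liver with the highest decorin, it was 0.73 with an adjusted p of 0.00226, and total-count scaling gave 1.48. SPARC (NM_001031794.1), a collagen-binding protein secreted by cells that remodel matrix, ran from 53.8 to 145 CPM in testis (median 100.3) and from 26.8 to 77.4 CPM in liver (median 45.7). It was higher in testis by 0.99 ± 0.19 on the log2 scale (adjusted p = 4.67e-05), with overlap between the highest livers and the lowest testes. Tenascin C (TNC, NM_214230.1), a glycoprotein of growing and wounded tissue, had a median of 0.724 CPM in testis and 1.03 CPM in liver and did not pass (log2 difference 0.44 ± 0.49, adjusted p = 0.410). This value became -0.04 without testis low replicate 4.

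LAMB1 (XM_003130269.1), the only laminin chain with an ID, encodes a chain of the basement membrane laminins. Its level varied little between testes, from 105 to 136 CPM (median 123), and more between livers, from 38.3 to 97.0 CPM (median 60.4). Every testis lay above every liver. In log2 terms LAMB1 differed by 0.94 ± 0.16 (adjusted p = 5.94e-06).

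**Figure D2:**
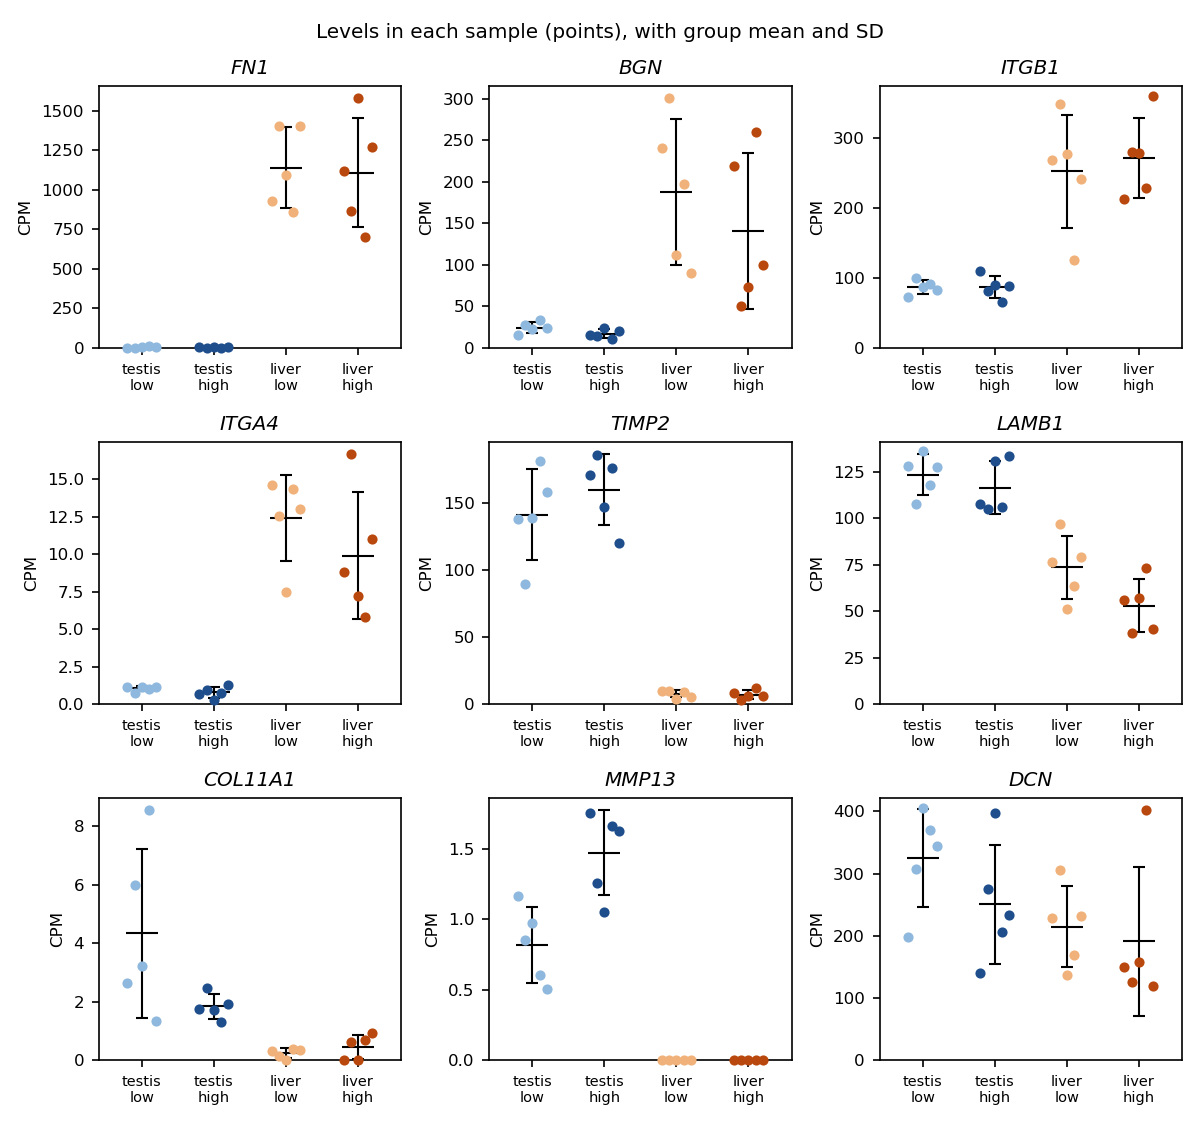
Levels in CPM (y axis, linear, 1 scale per gene) of 9 members in each sample of the 4 groups, with the mean (bar) and SD (whiskers, n = 5). FN1, BGN, ITGB1 and ITGA4 are higher in every liver than in any testis, TIMP2, LAMB1, COL11A1 and MMP13 are higher in every testis, and the DCN groups overlap.

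Of the collagen chains, 7 IDs could be tested, and 2 were higher in testis, 1 was higher in liver and 4 did not pass. Over all IDs tested, 43.5% were higher in testis and 32.2% in liver. COL11A1 (XM_001929372.2), a chain of the collagen XI that starts thin fibrils in cartilage, ran from 1.31 to 8.54 CPM in testis (median 2.20) and from 0 to 0.916 CPM in liver (median 0.330). The tissues did not overlap, with a log2 difference of 3.31 ± 0.48 (adjusted p = 9.87e-07), while the livers held 21 counts in all. COL9A1 (XM_003121273.1), of the collagen IX that sits on those fibrils, had 107 counts over the testes and 2 over the livers. This is a ratio of 30.0 after scaling, with a 95% counting interval from 8.09 to 251 (adjusted p = 2.40e-06 in edgeR). COL8A1 (XM_001926443.2), a short-chain collagen of vessel walls, ran from 0.0957 to 1.09 CPM in testis and from 0.798 to 4.92 CPM in liver, with a log2 difference of -2.35 ± 0.38 (adjusted p = 5.09e-06) and 1 testis above the lowest liver. COL5A2, a chain of the fibril-forming collagen V, was level between the tissues, at 12.8 ± 4.58 CPM in testis and 12.5 ± 4.10 CPM in liver (SD, n = 10), with a log2 difference of 0.02 ± 0.22. COL5A1, COL5A3 and COL19A1 stayed below 2 CPM in every sample and did not pass.

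The integrins were the group with the most members higher in liver. Of 10 chains tested, 7 were higher in liver (32.2% of all IDs), 1 was higher in testis (43.5%) and 2 did not pass. Their median log2 difference was -1.27. Under total-count scaling ITGAV, ITGB3 and ITGAL no longer passed, and ITGAL turned to 0.11. Only ITGA2B, ITGA4, ITGA5 and ITGB1 then stayed higher in liver, beside 18.8% of all IDs. ITGB1 (NM_213968.1), the beta chain shared by most matrix receptors, ran from 65.8 to 110.0 CPM in testis (median 88.3) and from 126 to 360.0 CPM in liver (median 273). All livers lay above all testes, and the log2 difference was -1.59 ± 0.18 (adjusted p = 1.13e-08).

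The alpha chains that pair with ITGB1 or ITGB3 differed from each other. ITGA4 (XM_003133517.1), which binds VCAM1 and fibronectin and is known from leukocytes, ran from 0.287 to 1.25 CPM in testis (median 0.969) and from 5.82 to 16.7 CPM in liver (median 11.8). No testis reached the lowest liver, and the log2 difference was -3.59 ± 0.24 (adjusted p = 6.25e-13). ITGA2B (NM_213998.1), the platelet and megakaryocyte chain, had medians of 0.850 CPM in testis and 6.58 CPM in liver, again without overlap (log2 difference -2.93 ± 0.29, adjusted p = 1.59e-09). ITGA5, the alpha chain of the classical fibronectin receptor, had medians of 15.6 and 49.7 CPM, with 1 liver below the highest testis (log2 difference -1.77 ± 0.23, adjusted p = 1.48e-07). ITGAV and ITGB3, which together form a vitronectin receptor, had log2 differences of -1.28 ± 0.21 and -1.25 ± 0.26, and for both the tissues overlapped. The leukocyte chain ITGAL had a log2 difference of -0.87 ± 0.25 (adjusted p = 0.00251), and the other leukocyte chain, ITGAM, did not pass (adjusted p = 0.437).

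The lists of leukocyte, endothelial and erythroid markers were mostly higher in liver, as most integrins were. The summed level of 5 macrophage and leukocyte markers lay between 8.20 and 16.7 CPM in the testes and between 386 and 672 CPM in the livers, and 5 of 5 were higher in liver. Endothelial markers (3 of 8 with an ID) summed to between 17.7 and 74.5 CPM in testis and to between 86.4 and 193 CPM in liver, and 2 of these 3 were higher in liver. Erythroid markers (10 IDs of 4 genes) summed to between 51.7 and 1059 CPM in testis and to between 1220 and 14614 CPM in liver. All 10 IDs were higher in liver, but most are entries of HBA2 and do not count as separate genes. The 3 hepatic stellate cell and fibroblast markers with an ID summed to between 26.9 and 103 CPM in testis and to between 45.6 and 165 CPM in liver, with 1 of 3 higher in testis and 2 higher in liver. The 3 peritubular myoid and smooth muscle markers with an ID summed to between 125 and 631 CPM in testis and to between 89.3 and 356 CPM in liver, and 2 of 3 were higher in testis. For comparison, 32.2% of all IDs tested were higher in liver and 43.5% in testis. No marker of these 5 lists was at 0 throughout a tissue. The part of these markers in the integrin levels was not tested. ITGB8 (NM_001097424.1), which binds latent TGF-beta, differed the other way, with medians of 1.42 CPM in testis and 0.466 CPM in liver and a log2 difference of 1.19 ± 0.26 (adjusted p = 2.13e-04).

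Among the MMPs, 7 of 13 could be tested. Of these, 2 were higher in liver (32.2% of all IDs), 1 was higher in testis (43.5%) and 4 did not pass. MMP13 (XM_003129808.1), a collagenase of cartilage and bone, was counted in every testis, with levels from 0.506 to 1.76 CPM (median 1.11) and 165 counts in all. Not a single read fell on it in the 10 livers, so it was at least 30.8-fold higher in testis when 3 counts over all livers are taken as the floor (adjusted p = 8.57e-09). In the RefSeq table (Sscrofa11.1), MMP13 is the end gene of a row of neighbours that also holds MMP20, MMP8, MMP1, MMP3 and MMP12, as well as MMP7 and MMP27, for which there was no ID. The 5 neighbours with an ID had 9 counts together over the testes and 15 over the livers, at most 5 each in a tissue, against the 165 counts of MMP13 in testis.

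The membrane and gelatinase members were higher in liver or near the floor. MMP14 (NM_214239.1), a membrane-bound collagenase that also activates pro-MMP2, ran from 0.238 to 1.81 CPM in testis (median 0.854) and from 1.52 to 11.4 CPM in liver (median 4.90). Only the lowest liver lay within the range of the testes (log2 difference -2.68 ± 0.34, adjusted p = 1.19e-07). MMP2 (NM_214192.1), the gelatinase of mesenchymal cells, had medians of 8.56 CPM in testis and 18.6 CPM in liver (log2 difference -0.97 ± 0.23, adjusted p = 5.84e-04), which total-count scaling moved to 0.02. MMP9, the gelatinase of neutrophils and macrophages, stayed at or below 0.317 CPM in testis and 0.580 CPM in liver, with 24 and 27 counts in all, and did not pass, although it did in 4 of 20 fits with a sample left out. MMP11 and MMP23B, at means of 5.31 and 4.74 CPM in testis and 4.32 and 3.15 CPM in liver, did not pass either, nor did MMP16, which stayed at or below 1.13 CPM in every sample.

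Of the 6 ADAMTS proteases, ADAMTS1 was higher in liver (32.2% of all IDs), ADAMTS8 was higher in testis (43.5%) and 4 did not pass. ADAMTS1 (NM_001144843.1), which cuts the large proteoglycans aggrecan and versican, ran from 4.88 to 13.1 CPM in testis (median 8.08) and from 22.5 to 204 CPM in liver (median 27.4). The tissues did not overlap. The log2 difference of -2.39 ± 0.34 (adjusted p = 5.17e-07) became -1.82 without liver high replicate 3, which held the value of 204 CPM. ADAMTS8 (XM_003130083.1) ran from 0.954 to 1.97 CPM in testis (median 1.49) and from 0 to 0.447 CPM in liver (median 0.169), with a log2 difference of 2.84 ± 0.31 (adjusted p = 7.84e-09) and only 17 counts over all livers. ADAMTS4 (XM_001927507.2), an aggrecan-cutting enzyme of the family, had medians of 0.405 CPM in testis and 0.186 CPM in liver. Its log2 difference of 1.44 ± 0.71 did not pass (adjusted p = 0.0672). Without testis high replicate 3 this difference was 0.70. It passed with androstenone group and replicate number together as a block (adjusted p = 0.0343) and by the likelihood ratio test (adjusted p = 0.00222). It also passed under total-count scaling (adjusted p = 0.00176) and in 5 of 20 fits with a sample left out, up to 1.99 without liver high replicate 3. ADAMTS2, which trims procollagen, and ADAMTS9 and ADAMTS15 had log2 differences between 0.52 and 0.65 and did not pass.

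The metalloproteinase inhibitors differed in direction from each other. TIMP2 (NM_001145985.1), which blocks MMPs and also takes part in the activation of pro-MMP2, ran from 89.1 to 186 CPM in testis (median 152) and from 3.33 to 11.6 CPM in liver (median 7.23). Every testis lay above every liver by a wide margin. This was a log2 difference of 4.36 ± 0.23, a fold of 20.5 (adjusted p = 5.34e-15). TIMP1 (NM_213857.1) had medians of 17.9 CPM in testis and 26.4 CPM in liver and a log2 difference of -0.60 ± 0.27 that only just passed (adjusted p = 0.0468). It did not pass under RLE scaling (adjusted p = 0.0671), by DESeq2 (adjusted p = 0.0586) or in 11 of 20 fits with a sample left out, where it came down to -0.38 without liver low replicate 4, and it was 0.33 under total-count scaling. TIMP3 (XM_003126073.1), the inhibitor that stays bound to the matrix, had means of 5.47 ± 3.65 CPM in testis and 6.29 ± 2.10 CPM in liver (SD, n = 10), with a log2 difference of -0.17 ± 0.28, and was 0.82 higher in testis under total-count scaling.

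The other matrix genes, 52 IDs of 49 genes out of a list of 128 symbols, were laid beside the members. Of the 51 tested, 13 were higher in testis (43.5% of all IDs), 26 were higher in liver (32.2%) and 12 did not pass. Over all IDs 75.7% passed. The median log2 difference was -0.59, beside 0.31 over all IDs tested. Those named for testis, the cartilage proteins COMP, ACAN and HAPLN1, had the largest fitted differences, but ACAN and HAPLN1 had at most 2 counts over all livers, so the 3 cannot be ranked. COMP, a glycoprotein that binds collagen, was at 164 ± 45.7 CPM in testis and 2.27 ± 1.27 CPM in liver (SD, n = 10), with a log2 difference of 6.18 ± 0.31 (adjusted p = 1.98e-15). ACAN, the aggrecan that ADAMTS4 cuts, was at 0.417 ± 0.219 CPM in testis and had no count in any liver, so it was at least 11.8-fold higher in testis with 3 counts over all livers as the floor. HAPLN1, the link protein that ties aggrecan to hyaluronan, was at 0.570 ± 0.487 CPM and 0.0305 ± 0.0695 CPM. A list of 4 cartilage and bone markers, ACAN among them, summed to between 1.90 and 6.71 CPM in the testes and to between 0.145 and 2.09 CPM in the livers.

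In liver the largest differences of these other genes were those of PLG, SERPINF1 and CYR61. PLG, the plasminogen that hepatocytes secrete and that becomes the protease plasmin, was at 1173 ± 304 CPM in liver and 3.23 ± 4.13 CPM in testis (log2 difference -8.44 ± 0.79, adjusted p = 3.90e-10). SERPINF1, a secreted serpin that binds collagen, was at 673 ± 165 CPM in liver and 3.70 ± 1.64 CPM in testis. CYR61, a matrix-bound signalling protein, was at 6.82 ± 4.31 CPM in liver and 0.230 ± 0.202 CPM in testis. The collagen-modifying enzymes LOXL4, P4HA1, PLOD1 and COLGALT1 were all 4 higher in liver (log2 differences from -0.71 to -2.51), beside 32.2% of all IDs. Of these, P4HA1 lies within the shift between scalings.

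In testis, high androstenone was compared with low androstenone in 5 boars against 5. The integrin chain ITGAV and the collagenase MMP13 had the most evenly higher values in the high androstenone testes, COL11A1, MMP11, BGN and TIMP1 had lower ones, and the high values of ADAMTS4 and TNC came from 2 boars. None of these passed after adjustment: edgeR's quasi-likelihood test called 0 of the 39 members, as it called 0% of all 18340 IDs. An unadjusted p under 0.05 was found for 7 members, against 9.49% of all IDs (3 with a higher and 4 with a lower estimate in high androstenone, against 3.18% and 6.31%). DESeq2 called 1 member, ITGAV, of the 28 to which it gave an adjusted p, against 0.853% of all 14061 such IDs. The likelihood ratio test of edgeR, run with only the trended dispersion, called 3 of 39, ADAMTS4, TNC and COL11A1, against 1.23% of all IDs. The estimate was negative for 29 of the 39 members, with a median log2 difference, high minus low, of -0.28, beside -0.02 over all IDs tested. The groups overlapped for each of the 39 members, while they did not overlap for 1.86% of all IDs (0.747% higher and 1.11% lower in high androstenone). In exact two-sided permutation tests of single genes, 5 boars against 5 allow no p below 0.00794.

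**Figure D3:**
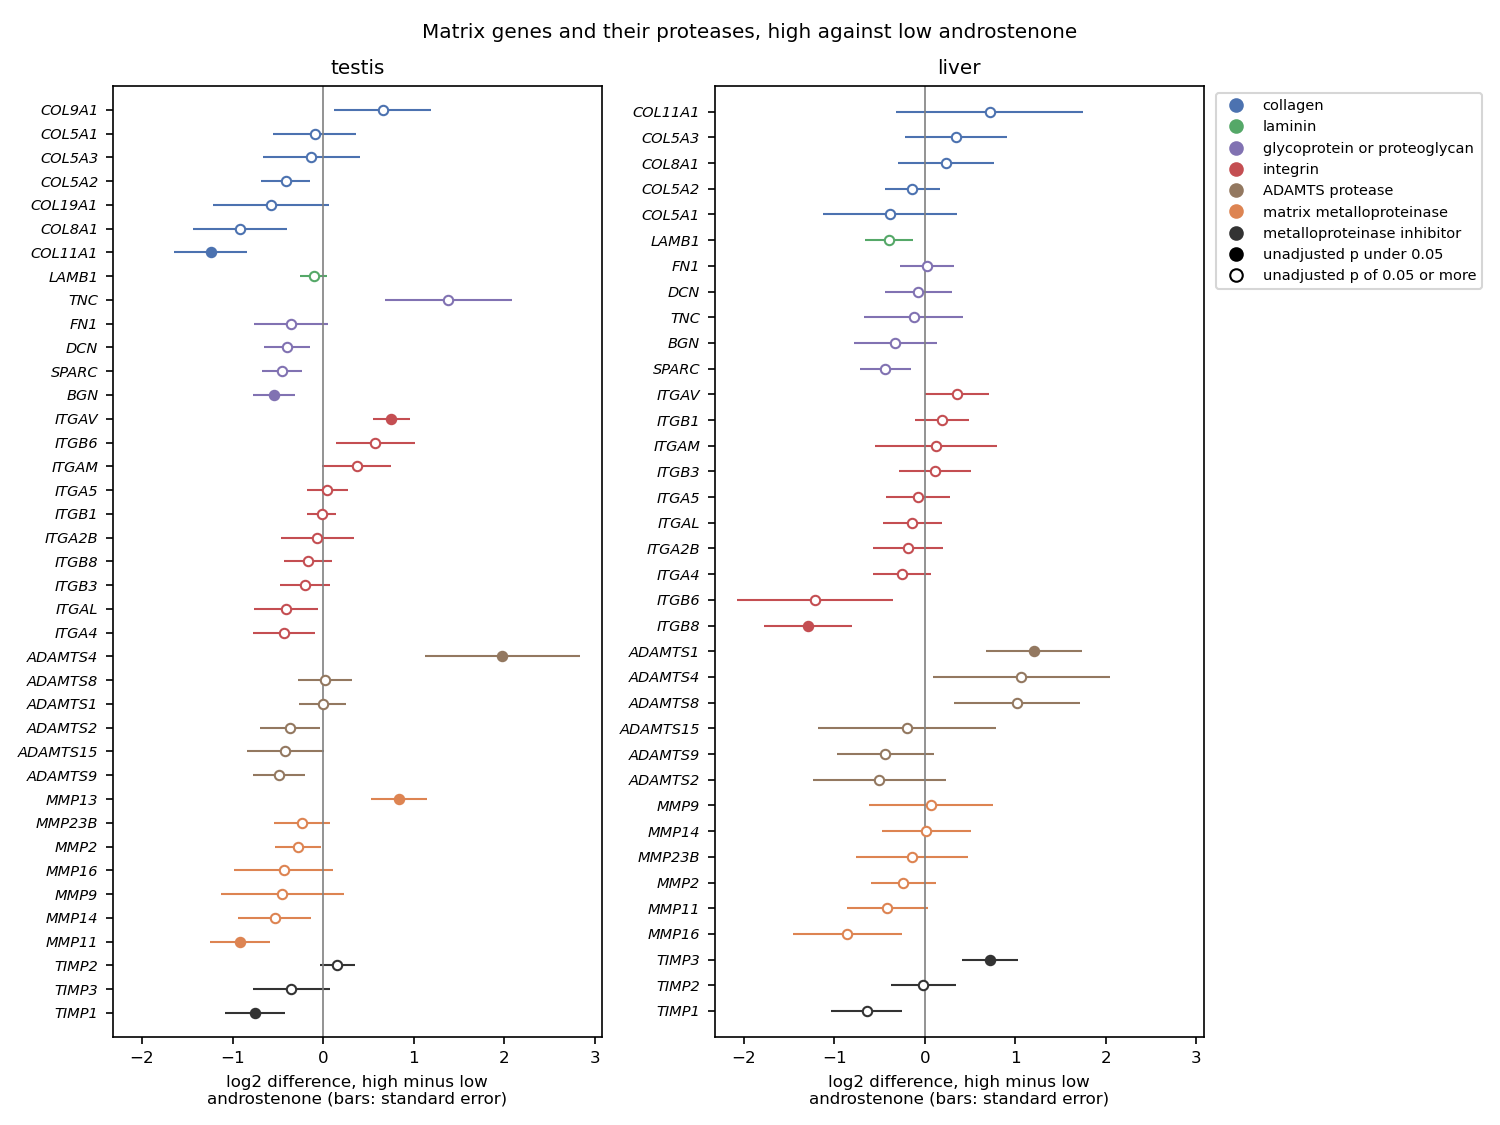
Log2 difference between high and low androstenone (x axis, high minus low) of the members tested in testis (39, left) and liver (36, right), grouped by role, as edgeR estimates with standard errors. Filled points have an unadjusted p under 0.05 (7 in testis and 3 in liver), and no member passed after adjustment.

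ITGAV (NM_001083932.1), the alpha V chain that binds vitronectin, fibronectin and latent TGF-beta, had the smallest p of the members. In the low androstenone testes it was at 5.54, 9.28, 10.5, 8.27 and 7.79 CPM, and in the high androstenone testes at 12.8, 14.8, 17.8, 10.1 and 15.6 CPM. The high group lay above the low group but for high replicate 4, which fell just under low replicate 3. The log2 difference was 0.76 ± 0.20 (unadjusted p = 0.00182, adjusted p = 0.338, exact permutation p = 0.0159), and DESeq2 gave 0.77 with an adjusted p of 0.0244. By edgeR neither ITGAV nor the beta chains with an ID that pair with it passed. The log2 differences of these beta chains were -0.01 ± 0.16 for ITGB1, -0.20 ± 0.27 for ITGB3, 0.58 ± 0.44 for ITGB6 and -0.17 ± 0.27 for ITGB8. ITGA5, the other fibronectin-binding alpha chain, was at 14.0 ± 4.07 CPM in low and 14.8 ± 3.73 CPM in high androstenone (SD, n = 5).

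MMP13 was at 1.17, 0.854, 0.975, 0.602 and 0.506 CPM in the low androstenone testes. In the high androstenone testes it was at 1.76, 1.26, 1.05, 1.66 and 1.63 CPM. Only low replicate 1 lay within the range of the high group, on 8 to 33 counts per testis. The log2 difference was 0.84 ± 0.31 (unadjusted p = 0.0157, adjusted p = 0.437, exact permutation p = 0.0159).

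The aggrecanase ADAMTS4 and tenascin C were high in the same boars. ADAMTS4 was at 0, 0.427, 0.133, 0.438 and 0.506 CPM in the low androstenone testes and at 0.160, 0.867, 4.79, 0.238 and 0.384 CPM in the high androstenone testes. TNC was at 0.777, 0.107, 0.487, 2.74 and 0.570 CPM in the low and at 0.958, 4.85, 5.93, 0.595 and 0.672 CPM in the high androstenone testes. For both genes high replicates 2 and 3 were the highest of the 10 testes, and the other high androstenone testes lay among the low ones. The log2 differences were 1.98 ± 0.85 for ADAMTS4 (unadjusted p = 0.0343, adjusted p = 0.488, exact permutation p = 0.294) and 1.39 ± 0.70 for TNC (unadjusted p = 0.0659, adjusted p = 0.556, exact permutation p = 0.198). High replicate 3 alone held 74.4% of the summed CPM of ADAMTS4 in the high group, on 50 counts, and without it the log2 difference was 0.52. The TNC difference was 0.93 without high replicate 3 and 2.38 without low replicate 4.

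The collagen COL9A1 shared part of this pattern, with 1.56 and 1.72 CPM in high replicates 2 and 3 and at most 0.874 CPM in any other testis (log2 difference 0.66 ± 0.54). The summed Leydig cell markers (5 of 7 with an ID) were also highest in these testes, at 5213 and 4672 CPM, where the low group ran from 1100 to 4325 CPM and the rest of the high group from 1244 to 2965 CPM. Low replicate 5 held the 4325 CPM, with ADAMTS4 at 0.506 CPM and TNC at 0.570 CPM. Low replicate 4, with TNC at 2.74 CPM, had a Leydig cell sum of 1944 CPM. The part of these markers in the levels of ADAMTS4 and TNC was not tested. The study listed ADAMTS4 as higher in high androstenone testes, from these same samples, so its listing is no independent evidence of direction. It named TNC only under a functional category, without a direction.

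**Figure D4:**
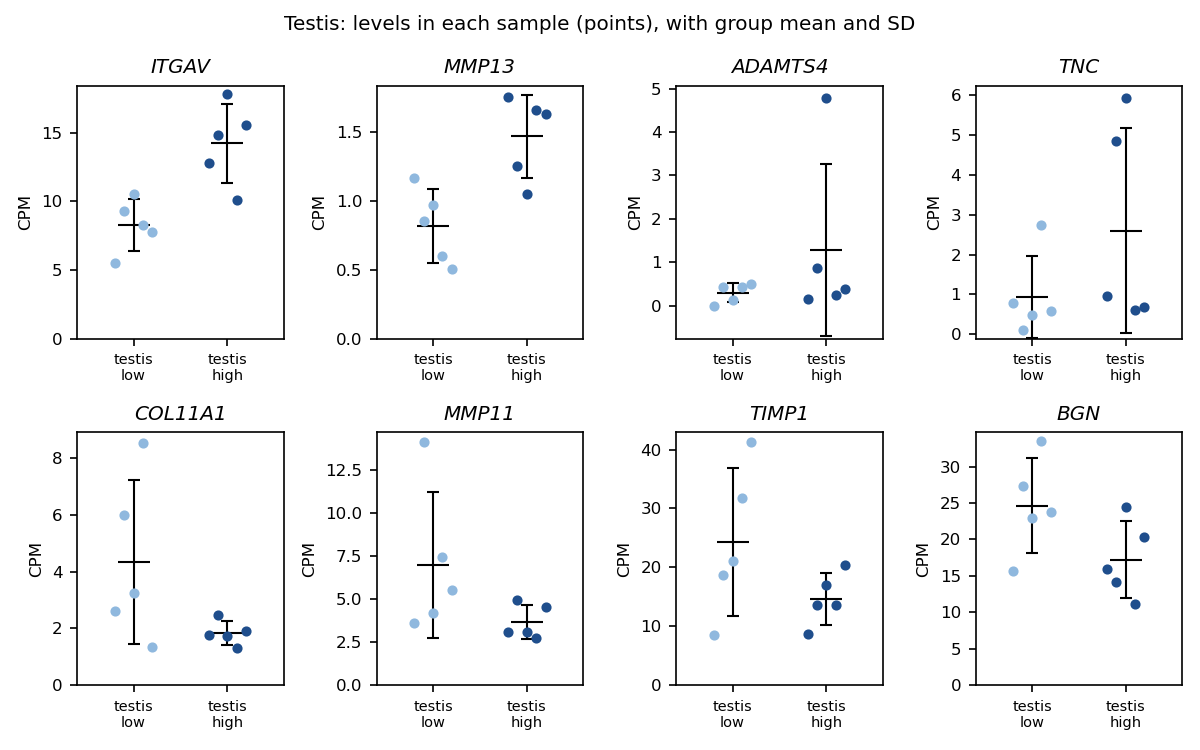
Levels in CPM (y axis, linear, 1 scale per gene) of 8 members in each testis with low or high androstenone, with the mean (bar) and SD (whiskers, n = 5). ITGAV and MMP13 are shifted as groups, the high values of ADAMTS4 and TNC are those of 1 or 2 high androstenone testes, and the low groups of COL11A1, MMP11 and TIMP1 hold the widest spread.

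COL11A1 had the largest negative estimate of the members. It was at 2.62, 5.98, 3.23, 8.54 and 1.33 CPM in the low and at 1.76, 2.47, 1.72, 1.31 and 1.92 CPM in the high androstenone testes. The high group was narrow and the low group wide, with low replicate 5 close to the lowest of the high group. The log2 difference was -1.24 ± 0.41 (unadjusted p = 0.00780, adjusted p = 0.399, exact permutation p = 0.0714), and -0.81 without low replicate 4. COL5A2 and COL8A1 had negative estimates too, of -0.41 ± 0.27 and -0.92 ± 0.52, and of the 7 collagen IDs only COL9A1 had a positive one.

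MMP11 (XM_001929445.2), a stromal MMP that does not cut most matrix collagens, followed with 3.59, 14.1, 4.16, 7.44 and 5.51 CPM in the low and 3.09, 4.94, 3.06, 2.73 and 4.51 CPM in the high androstenone testes. Low replicates 2, 4 and 5 lay above the high group, low replicate 2 by far, and low replicates 1 and 3 lay within it. The log2 difference of -0.92 ± 0.34 (unadjusted p = 0.0153, adjusted p = 0.437, exact permutation p = 0.0714) became -0.51 without low replicate 2. The other MMPs but MMP13 had negative estimates between -0.53 and -0.23, with standard errors of at least 0.25.

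TIMP1 was at 8.55, 18.7, 21.0, 31.8 and 41.3 CPM in the low and at 8.62, 13.6, 17.0, 13.7 and 20.4 CPM in the high androstenone testes. Only low replicates 3, 4 and 5 lay above the high group. The log2 difference was -0.76 ± 0.33 (unadjusted p = 0.0372, adjusted p = 0.488, exact permutation p = 0.206). TIMP2, the inhibitor with the most reads in testis, was at 141 ± 33.9 CPM in the low and 159.7 ± 26.3 CPM in the high group (SD, n = 5), a log2 difference of 0.16 ± 0.20. TIMP3 was at 3.20, 2.88, 5.63, 4.05 and 14.6 CPM in the low group and between 2.45 and 7.18 CPM in the high group, and its estimate of -0.35 ± 0.43 turned to 0.27 without low replicate 5.

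Biglycan was at 15.6, 27.3, 22.9, 33.6 and 23.7 CPM in the low and at 16.0, 14.2, 24.5, 11.1 and 20.4 CPM in the high androstenone testes. Low replicates 2 and 4 lay above, and high replicates 2 and 4 below, the range of the other group, with the rest mixed. The log2 difference was -0.54 ± 0.23 (unadjusted p = 0.0355, adjusted p = 0.488, exact permutation p = 0.0873). SPARC and decorin had estimates of the same sign, -0.45 ± 0.22 and -0.40 ± 0.25. LAMB1 was nearly level, at 123 ± 11.0 CPM in the low and 116 ± 14.3 CPM in the high group (log2 difference -0.11 ± 0.15).

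Of the 51 other matrix genes tested in testis, 0 passed, beside 0% of all IDs. An unadjusted p under 0.05 was found for 10, against 9.49% of all IDs. The estimate was negative for 42, with a median log2 difference of -0.31, beside -0.02 over all IDs tested. GPC4, a membrane-anchored heparan sulfate proteoglycan, was at 18.7 ± 7.53 CPM in the low and 11.4 ± 1.29 CPM in the high group (log2 difference -0.73 ± 0.23, adjusted p = 0.374). MGP, the matrix protein that keeps vessels and cartilage from calcifying, was at 31.0 ± 16.5 and 16.1 ± 4.40 CPM (log2 difference -0.97 ± 0.31, adjusted p = 0.384). COLGALT1, which adds galactose to collagen, was at 15.4 ± 6.10 and 9.67 ± 0.953 CPM (log2 difference -0.68 ± 0.22, adjusted p = 0.396). In all 3 the low group had the wider spread.

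Some lists of cell type markers had mostly negative estimates in testis as well, and others had mostly positive ones. The 3 peritubular myoid and smooth muscle markers with an ID summed to between 240.3 and 631 CPM (median 431) in the low and to between 125 and 365 CPM (median 224) in the high androstenone testes. The macrophage and leukocyte markers summed to between 8.35 and 16.7 CPM (median 15.3) in the low and to between 8.20 and 9.23 CPM (median 8.74) in the high group, and erythroid markers to between 119 and 1059 CPM and between 51.7 and 162 CPM. The 4 Sertoli cell markers with an ID summed to between 12122 and 21765 CPM in the low and to between 4030 and 13401 CPM in the high group. The same 4 markers summed to between 2363 and 23255 CPM in the livers, so this sum is not particular to Sertoli cells. Estimates were negative for 3 of 3 myoid, 4 of 5 leukocyte and 4 of 4 Sertoli cell IDs. So were those of 10 of 10 erythroid IDs, which belong to 4 genes and are mostly entries of HBA2. The same held for 3 of 3 stellate cell and fibroblast, 3 of 3 endothelial, 3 of 3 bile duct and 3 of 4 cartilage and bone IDs. The median log2 difference over all IDs tested was -0.02. Positive estimates were found for 4 of 5 Leydig cell, 4 of 5 germ cell and 5 of 6 hepatocyte IDs. No ID of these lists passed after adjustment, and none was at 0 in all testes. Their part in the members' levels was not tested.

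In liver, the same comparison was made in 5 boars against 5. ITGB8 had lower values, and TIMP3 higher ones, in the high androstenone livers, and ADAMTS1 was set apart by 1 liver. Of the 36 members tested, edgeR called 0, beside 0% of all 15855 IDs, and DESeq2 called 0 as well, beside 0.0442% of all IDs. An unadjusted p under 0.05 was found for 3 members, against 2.93% of all IDs (2 higher against 1.24%, and 1 lower against 1.69%). Every adjusted p of the members was 1.00 when rounded. The estimate was negative for 22 of the 36 members, with a median log2 difference of -0.13, beside 0.01 over all IDs tested, and the groups overlapped for each member, while they did not for 0.542% of all IDs (0.082% higher and 0.46% lower in high androstenone).

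ITGB8 was at 1.28, 1.64, 0.439, 1.14 and 0.680 CPM in the low and at 0.484, 0.417, 0.435, 0.447 and 0.183 CPM in the high androstenone livers. Only low replicate 3 lay within the high group, but the level was at or near 3 counts in several livers. Its log2 difference was -1.29 ± 0.49 (unadjusted p = 0.0186, exact permutation p = 0.0238). TIMP3 was at 5.86, 4.93, 4.83, 2.46 and 6.35 CPM in the low and at 5.03, 8.75, 9.29, 8.05 and 7.33 CPM in the high group, with high replicate 1 among the low livers (log2 difference 0.72 ± 0.31, unadjusted p = 0.0344, exact permutation p = 0.0317). ADAMTS1 was at 24.5, 27.8, 30.9, 27.1 and 31.3 CPM in the low and at 43.7, 26.2, 204, 23.3 and 22.5 CPM in the high group. The log2 difference of 1.20 ± 0.53 (unadjusted p = 0.0397, exact permutation p = 0.524) became 0.11 without high replicate 3.

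None of the members with many liver reads passed. Fibronectin was at 1139 ± 256 CPM in the low and 1109 ± 343 CPM in the high androstenone livers (SD, n = 5), with a log2 difference of 0.02 ± 0.30. ITGB1 was at 253 ± 81.3 and 272 ± 57.2 CPM, decorin at 214.5 ± 64.7 and 191 ± 119.8 CPM, and biglycan at 188 ± 88.0 and 141 ± 93.6 CPM. SPARC, LAMB1 and TIMP1 had estimates of -0.44 ± 0.28, -0.40 ± 0.26 and -0.64 ± 0.39. Liver low replicate 4 held the highest TIMP1 of all samples, 76.2 CPM, and without it the TIMP1 estimate was -0.15. Of the 47 other matrix genes tested, 0 passed and 24 had a negative estimate, and the smallest p was that of ADAM10, a membrane sheddase at 3.87 ± 1.80 CPM in the low and 2.15 ± 0.635 CPM in the high group (unadjusted p = 0.0503). The protease CTSL and the TGF-beta co-receptor TGFBR3 followed, with log2 differences of -0.74 ± 0.40 and -0.56 ± 0.33.

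The members varied more between the livers than between the testes. The coefficient of variation over the 10 samples had a median of 42.8% over the 24 members with a mean of at least 1 CPM in liver, from 25.4% for FN1 to 121% for ADAMTS1. In testis it had a median of 33.4% over 25 members, from 10.5% for LAMB1 to 116% for TNC. No such value over all IDs is given, so this is not shown to be particular to the members. Biglycan was at 240.4, 301, 112, 197 and 89.7 CPM in the low and at 219.6, 50.0, 73.2, 260.4 and 99.7 CPM in the high androstenone livers. ITGB3 (NM_214002.1) was at 112, 92.1, 43.6, 75.9 and 45.7 CPM in the low and at 116, 31.2, 37.6, 112 and 75.5 CPM in the high group. The livers highest in biglycan (low replicates 1, 2 and 4 and high replicates 1 and 4) were also the highest in ITGB3, in both androstenone groups. High replicate 2 had the lowest values of BGN, ITGB3, MMP23B and TIMP2, and high replicate 4 had the highest of DCN and COL8A1 and the lowest of FN1, ITGA4, ITGA5 and ITGAV. The summed hepatocyte markers were highest in low replicate 5 and high replicate 3, at 308606 and 287743 CPM, and lowest in high replicates 5 and 4, at 107067 and 127729 CPM. Their part in this pattern was not tested.

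**Figure D5:**
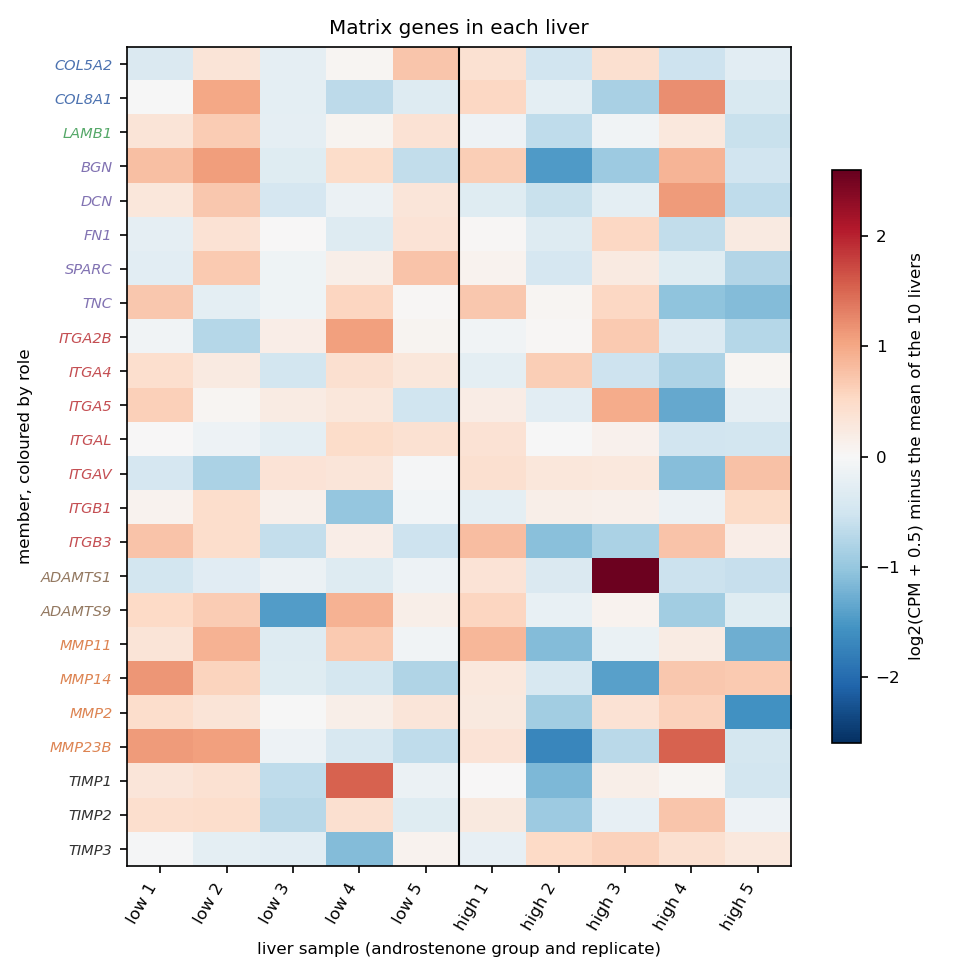
Levels of the 24 members with a mean of at least 1 CPM in liver, as log2(CPM + 0.5) minus the mean of the 10 livers (colour, red higher, blue lower), with 1 column per liver and members ordered by role. BGN, ITGB3 and MMP23B are low together in high replicates 2 and 3, ADAMTS1 is far above its mean in high replicate 3, and most rows mix both colours within each androstenone group.

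The androstenone difference in testis was set against that in liver by the interaction term over all 20 samples. It called 0 of the 39 members, beside 0% of all IDs, and an unadjusted p under 0.05 was found for 1 member, against 4.67% of all IDs (3.04% in the same direction). This was ITGB8, with a log2 difference of -0.17 ± 0.27 in testis and -1.29 ± 0.49 in liver and an interaction of 1.22 ± 0.52 (unadjusted p = 0.0284). For ITGAV the differences of 0.76 in testis and 0.36 in liver gave an interaction of 0.46 ± 0.41, and for ADAMTS4 the differences of 1.98 and 1.07 gave 0.84 ± 1.60. The ADAMTS4 difference of 1.07 in liver became 0.061 without liver high replicate 3. The interaction of MMP13 has no meaning, since it had no liver counts.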

How the data were processed

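RNA-Seq of testis and liver from 10 boars gave 20 samples. The authors called bases with CASAVA 1.7 and mapped reads by BWA to pig RefSeq mRNAs and UniGene transcripts, and the deposited values are raw counts per reference ID, without normalization. How reads that fit several sequences were counted is not given in the sources used here. IDs listed several times with equal counts were used once. Symbols came from the RefSeq table (Sscrofa11.1) or the study's gene tables. Members, gene lists and named genes (genes the study lists, core matrix genes, and the largest differences or smallest p-values, above 1 CPM except for the tissue differences of other matrix genes) were chosen with earlier results of these data known, and other members were named after their values were seen.

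Counts were tested with edgeR 4.0.16 in R 4.3.3 (TMM, at least 10 summed counts, quasi-likelihood test, Benjamini-Hochberg adjustment over all IDs), within each tissue on 10 samples and between tissues on 20. A call needed an adjusted p under 0.05 and a fold of at least 1.5. Standard errors follow from the F statistic. Exact permutation tests used log2(CPM + 0.5). On simulated data with 200 genes changed by a log2 fold of 2, the test recovered 95.5% in testis, 71% in liver and 96% between tissues. The changed genes had a mean of at least 10 counts, so these rates do not cover lower counts or smaller changes. Most androstenone estimates of the members were smaller than this. The labels do not tie testis to liver samples of a boar, so the tissue fit treats them as separate samples. Alternatives included DESeq2 1.42.0, and 1, leaving out 4 livers, was added after the data were seen.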

Additional observations from a re-analysis of the deposited data

Results flagged for a closer look

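Groups of 5 samples were screened for a sample whose gap to its nearest neighbour, on the log2(CPM + 0.5) scale, took over 0.71 of the range of the group. This was done for the members with a mean of at least 1 CPM in the group, 74 groups in all, of which chance alone would mark about 1 in 20, and 3 were marked. Decorin was far above the other livers of its group in liver high replicate 4, at 403 CPM, where the rest lay between 119 and 157 CPM. In the same liver ITGAV was far below, at 11.2 CPM, where the rest lay between 30.0 and 42.2 CPM. ITGA4 was lowest in liver low replicate 3, at 7.47 CPM, where the rest lay between 12.5 and 14.6 CPM.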

How the results depend on the processing

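The count of members called between the tissues was 21 to 24 when each sample was left out in turn (testis 8 to 10, liver 13 to 15). It was 23 without the 4 livers highest in hepatocyte markers, a setting chosen after the data were seen. The main fit called 22, beside 75.7% of all IDs. Shares over all IDs are not given for the fits with samples left out. Total counts alone gave 19 higher in testis and 9 in liver, beside 59.5% and 18.8% of all IDs, and turned the sign of 9 of 39 members: MMP2 (0.022), TIMP1 (0.33), TIMP3 (0.82), COL5A1, COL5A3, ITGAL, ITGAM, ITGB6 and MMP16. A log2 fold change of at least 1.5 left 14, of which 5 were higher in testis and 9 in liver (33.1% and 21.1% of all IDs). In testis, DESeq2 called 1 member (0.853% of all IDs) and the likelihood ratio test 3 (1.23%), besides MGP of the other matrix genes, where the main test called 0. Both androstenone comparisons and the interaction kept 0 calls with each sample left out. Members with an unadjusted p under 0.05 then numbered 5 to 9 in testis, 0 to 3 in liver and 0 to 3 in the interaction. In the main fits they numbered 7, 3 and 1, beside 9.49%, 2.93% and 4.67% of all IDs. The interaction had 3 such members by DESeq2 (5.01% of all IDs) and 4 by the likelihood ratio test (5.68%). A block was also fitted. Within a tissue it was the replicate number, which joins different boars. Over all samples it was androstenone group and replicate number, which takes same-numbered testis and liver as 1 boar. With the block, 0 members were called in testis, liver and the interaction. An unadjusted p under 0.05 was found for 8, 0 and 1 members (11%, 1.96% and 3.67% of all IDs). Between tissues 24 members were called, beside 74.5% of all IDs. Same-numbered low and high samples, which are different boars, correlated at -0.06 to 0.15 in testis and -0.34 to 0.47 in liver. Across tissues, same-numbered samples correlated at -0.06 to 0.41. For some this was above every other number (high replicate 3, 0.41 against at most 0.24). For others it was below (low replicate 3, 0.10 against up to 0.27). This does not settle whether the numbers mark the same boar, and they were not taken as pairs. Some small estimates changed sign: in liver FN1 was -0.039 and MMP14 -0.11 in one fit of all samples, and MMP14 was -0.050 and MMP9 -0.20 with the block. Leaving out a sample gave ranges of -0.57 to 0.066 (FN1) and -0.52 to 0.27 (TIMP3) in testis, and of -0.58 to 0.070 (DCN), -0.11 to 0.14 (FN1), -0.44 to 0.11 (TNC), -0.20 to 0.39 (MMP14), -0.30 to 0.30 (MMP9) and -0.28 to 0.16 (TIMP2) in liver. Between tissues TNC ran from -0.038 to 0.61. For these changes the cause was not tested. Depth limits what can be said of the members with under 10 counts in a tissue, and of MMP9, with at most 6 counts in any sample.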
